A study of Mus musculus with 17 samples.

Results

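The genes described here are 39 interferon-stimulated genes, chosen by symbol as transcription factors, RNA sensors, antiviral effectors, ubiquitin and ADP-ribose modifiers and a few others, and followed in 32D cells, a mouse myeloblast-like line that depends on interleukin-3 (IL-3). A value could be computed for 37 of the 39, out of 20227 genes with a value. Isg15, the ubiquitin-like modifier, had no probe set annotated to its symbol alone, and the 3 probe sets of Ifit3 lay below the level filter, so neither was analysed here. RNA of 17 cultures was measured on Affymetrix exon arrays, and all values below are log2 signals averaged over the probe sets of a gene. Parental cells (2 arrays) and cells carrying the empty retroviral vector pLXRN (2 arrays) were kept in 1 ng/mL of mouse IL-3. Cells with human wild-type FLT3, a receptor tyrosine kinase of blood progenitors, grew with the same IL-3 (2 arrays). A split of that line received FLT3 ligand at 20 ng/mL (2 arrays), and whether IL-3 stayed in these cultures is not said outright; its sample titles could also mean that the ligand itself was transduced, and the reading of the growth protocol is used here. The remaining 9 arrays came from 9 different human FLT3 mutants with an internal tandem duplication (ITD), 1 array each, grown without IL-3 and numbered here ITD line 1 to 9. FLT3 and its mutants were expressed from the same pLXRN backbone, the vector and wild-type lines were selected with G418, and all transduced lines were polyclonal populations. Each control pair is titled as biological replicates, but the sources do not settle whether they were separately made lines. How far the 2 arrays of a pair differ may thus be a technical matter only. The p-values from all 17 arrays use a shared spread, which comes mostly from differences among the 9 ITD lines.

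Type I interferons bind the receptor of Ifnar1 and Ifnar2, and the kinases Jak1 and Tyk2 then phosphorylate Stat2. With Irf9 it belongs to the complex ISGF3, which binds the interferon-stimulated response element (ISRE) in promoters and switches on genes that detect viral RNA, block its translation or copying, and tune the response itself. Irf7 is both a product of this response and the main factor for further interferon production, and Irf1 and the gamma-activated site (GAS) belong more to the response to interferon gamma.

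The median signal of an array was 4.63 to 4.69, which the RMA normalisation makes alike. Precision is limited by how few arrays there are. Flt3 probe sets, designed for the mouse gene, averaged 5.25 in parental and 5.19 in vector arrays, against 6.76 with wild-type FLT3, 6.89 with ligand and 7.16 in the ITD lines (7.08 to 7.32), which follows the labels. Markers of myeloblasts listed for this check (9 of 10 with a value) averaged 10.44 to 10.45 in the parental arrays and 10.35 to 10.37 in the vector arrays. They averaged 9.75 to 9.76 with wild-type FLT3, 9.97 to 9.98 with ligand and 9.59 to 10.13 in the ITD lines, and against parental cells 6 of 9 were lower with wild-type FLT3 and 5 of 9 in the ITD lines.

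The interferon-stimulated genes were high in the cells with the empty vector. Against parental cells, 23 of 37 were higher and 0 lower, where 1.27% of all genes were called higher, 0.959% lower and 2.23% either way (limma, Benjamini-Hochberg adjusted p under 0.05 over 20227 genes). The median difference of the 37 was 1.06 on the log2 scale, against 0.03 over all genes, and 36 of 37 differences were positive. Both vector arrays lay above all 15 other arrays for 30 of the 37, which holds for 3.41% of genes. Both were above both parental arrays for 35 of the 37 (29.3% of genes). The exceptions to the former were Oasl1, Ifit2, Mx2, Parp12, Gbp2, Eif2ak2 and Herc6. Among the 20 genes with the largest vector minus parental difference 5 were of the 37, and among the 100 largest 17 were. The labels do not say whether the vector cultures were separately made lines. The empty vector and any other feature of these cultures therefore cannot be told apart. In such bulk RNA, more cells with the transcripts and more RNA per cell cannot be told apart either. The number called was 13 without vector array 1, 14 without vector array 2, 15 without parental array 2, and 31 with the control arrays fitted alone (6.2% of genes higher). In the fit of all arrays 13 genes were called whichever array was left out: Irf7, Irf9, Rtp4, Oas2, Oas3, Oasl2, Dhx58, Xaf1, Ifi44, Ifi35, Parp14, Zbp1 and Lgals3bp. Of these, Zbp1 and Ifi44 lost their calls under other level filters, as given with their values.

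**Figure D1:**
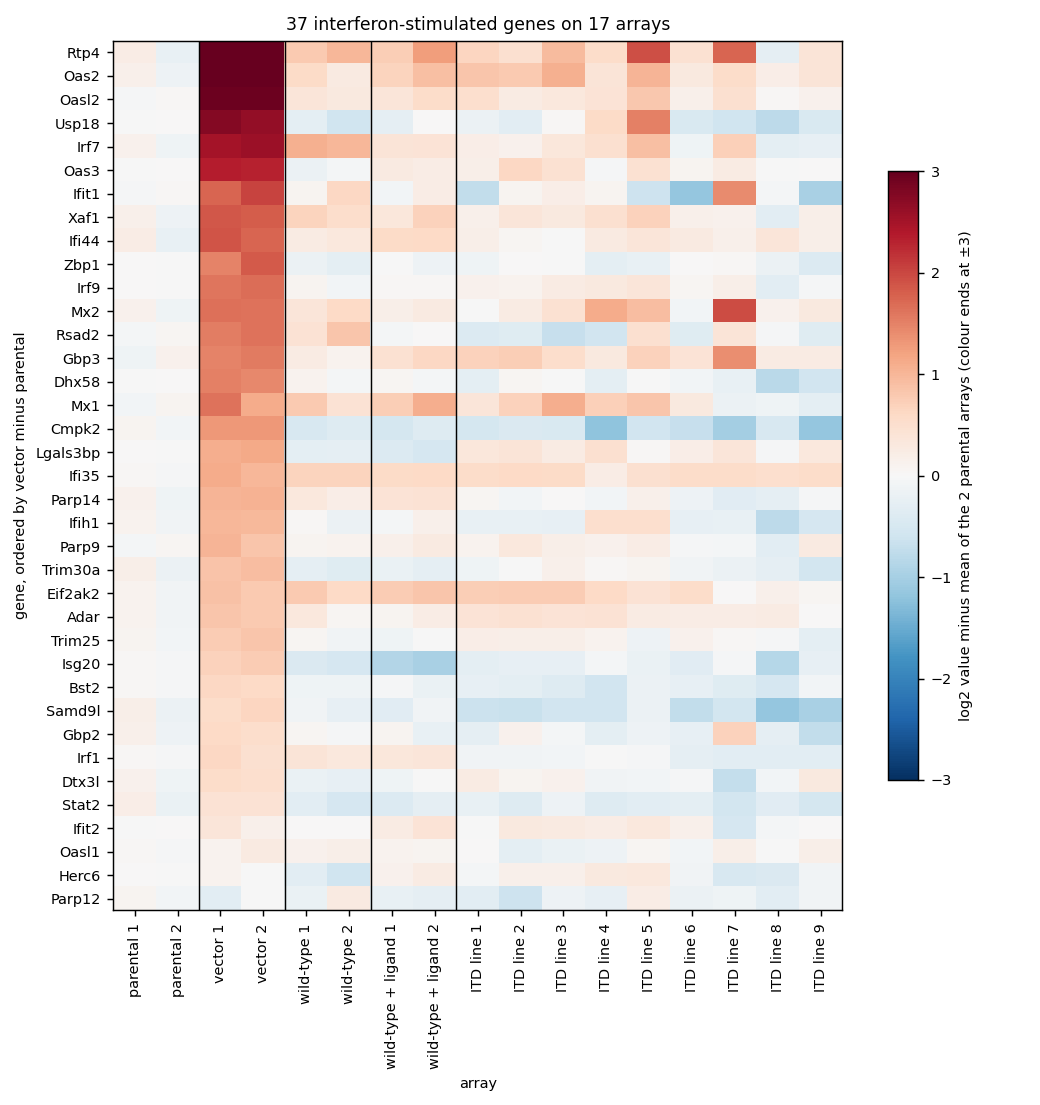
Level of each of the 37 genes with a value on each of the 17 arrays, as the log2 difference from the mean of the 2 parental arrays (red above, blue below, with the colour ending at a difference of 3 either way). Genes run down in the order of their vector minus parental difference, and arrays run across by group. The 2 vector columns are red for nearly all genes, with medians of 1.09 and 1.04, while the medians of the wild-type, ligand and ITD arrays lie between -0.26 (ITD line 8) and 0.24 (ITD line 5).

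Of the 4 transcription factors, 3 were higher in the vector line. Irf7 read 6.99 and 6.73 in parental cells and 9.36 and 9.42 with the vector, a difference of 2.53 ± 0.31 (SE, adjusted p = 0.000257), or 5.79-fold. Wild-type FLT3 cells gave 7.92 and 7.85 and ligand-treated cells 7.24 and 7.26, and the 9 ITD lines spanned 6.57 to 7.76 with a median of 7.07. Both vector arrays were thus above every other array, and the wild-type pair was the next highest. Irf9, the DNA-binding partner of Stat2, read 7.39 on both parental arrays and 9.00 and 9.06 with the vector (difference 1.64 ± 0.17, adjusted p = 4.31e-05). Its wild-type, ligand and ITD arrays all lay between 7.07 and 7.75, so the pair of vector arrays stood alone. Irf1 differed less, with 7.76 and 7.67 in parental cells and 8.33 and 8.18 with the vector (difference 0.54 ± 0.13, adjusted p = 0.0319). The Irf1 call was lost when any of these 4 arrays was left out (differences 0.47 to 0.61). It was also lost with the median of probe sets (0.55, adjusted p = 0.130). Stat2 was 8.77 and 8.37 in parental cells and 9.01 on both vector arrays, which did not pass (0.44, adjusted p = 0.142).

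Of 8 genes for RNA and nucleic acid sensing, 6 were higher with the vector, with a median difference of 1.23 over the 8. Oas2, an oligoadenylate synthetase that activates RNase L on double-stranded RNA, read 6.09 and 5.79 in parental cells and 9.06 and 8.96 in vector cells (difference 3.07 ± 0.25, adjusted p = 9.0e-06). The wild-type arrays were at 6.52 and 6.21, the ligand arrays at 6.62 and 6.83 and the ITD lines had a median of 6.48, all far under the vector pair. Its relative Oas3 gave 6.28 and 6.29 against 8.63 and 8.58 (difference 2.33 ± 0.19, adjusted p = 9.0e-06), and no other array exceeded 6.91. Zbp1, a sensor of left-handed nucleic acids that can start cell death, read 5.72 and 5.70 in parental and 7.21 and 7.55 in vector arrays (difference 1.67 ± 0.17, adjusted p = 4.31e-05). All other Zbp1 arrays lay at 5.29 to 5.74. The Zbp1 value rests on probe sets that pass the level filter with the help of the high vector arrays. With a filter that ignores those arrays the difference was 0.64 (adjusted p = 0.0544), and under the stricter level filter 0.31 (adjusted p = 0.346). Dhx58, a helicase that tunes RNA sensing, was 7.09 and 7.13 against 8.63 and 8.56 (difference 1.48 ± 0.22, adjusted p = 0.00127). Adar, the RNA-editing deaminase, differed by 0.81 ± 0.15, and Trim25, a ubiquitin ligase of the sensor pathway, by 0.80 ± 0.15, both called. Both calls were lost when parental array 2 or either vector array was left out. That of Trim25 was also lost with the median of probe sets (0.84, adjusted p = 0.0533). Ifih1, a helicase that senses long double-stranded RNA, and Eif2ak2, the kinase that stops translation on such RNA, did not pass, with differences of 0.99 (adjusted p = 0.119) and 0.84 (adjusted p = 0.0765).

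Among 14 antiviral effectors 6 were called higher, and the largest difference of the 37 was here. Rtp4, a receptor transporter protein with antiviral action, read 5.45 and 5.02 in parental cells and 9.90 and 9.71 in vector cells, a difference of 4.57 ± 0.51 (adjusted p = 0.000105), or 23.7-fold, the second largest of all 20227 genes. Wild-type arrays gave 6.02 and 6.22, ligand arrays 5.97 and 6.49, and the ITD lines 4.98 to 7.18 with a median of 5.80. No array without the empty vector came near the vector pair, while ITD lines 5 and 7 were above the wild-type arrays. Oasl2, an OAS-like protein, was 5.58 and 5.66 against 8.57 and 8.56 (difference 2.95 ± 0.19, adjusted p = 8.8e-07), with the other 13 arrays at 5.65 to 6.43. Rsad2 (viperin), which makes a chain-terminating nucleotide, read 5.62 and 5.76 in parental and 7.23 and 7.33 in vector arrays (difference 1.59 ± 0.31, adjusted p = 0.0103). The call for Rsad2 was lost when any of these 4 arrays was left out (highest adjusted p 0.103). Cmpk2, the mitochondrial nucleotide kinase encoded beside Rsad2, was 7.46 and 7.28 against 8.66 and 8.67, a called difference of 1.30 ± 0.24. Gbp3, a guanylate-binding GTPase, was 5.41 and 5.68 against 7.04 and 7.09 (1.52 ± 0.28, adjusted p = 0.0064), and Bst2 (tetherin), which holds budding virus at the membrane, was called at 0.61 ± 0.13. The calls of Cmpk2, Gbp3 and Bst2 were each lost when either vector array was left out. That of Bst2 was also lost without either parental array and with the median of probe sets (0.51, adjusted p = 0.147).

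The other 8 effectors did not pass in this comparison. Ifit1, which binds foreign RNA and blocks its translation, read 5.28 and 5.34 in parental cells and 7.06 and 7.34 with the vector (1.89 ± 0.57, adjusted p = 0.103), and the ITD lines ran from 4.16 to 6.73. Its value is the mean of 3 probe sets, whose vector minus parental differences ran from 0.34 to 4.28. ITD lines 1, 6 and 9 (4.57, 4.16 and 4.33) lay under 4.599, the level of the filter. The dynamin-like GTPase Mx2 was 5.20 and 4.95 against 6.73 and 6.70 (1.64 ± 0.48, adjusted p = 0.0896), and ITD line 7, at 7.04, was above both vector arrays. For both genes the 2 groups did not overlap, and the spread among ITD lines, which enters the shared error, was among the widest of the 37. Mx1 differed by 1.37 (adjusted p = 0.0706) and the exonuclease Isg20 by 0.73 (adjusted p = 0.0519). Samd9l, a growth-restraining factor, differed by 0.60, Gbp2 by 0.55, Ifit2 by 0.25 and Oasl1, which restrains translation of Irf7, by 0.20.

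Of 7 modifiers, 4 were higher. Usp18, the protease that removes Isg15 from proteins and dampens the interferon receptor, read 6.74 and 6.77 in parental and 9.50 and 9.38 in vector cells (difference 2.69 ± 0.51, adjusted p = 0.00844). Wild-type arrays were at 6.47 and 6.16 and ligand arrays at 6.49 and 6.78, and the ITD lines ranged from 5.98 to 8.27 with a median of 6.43. Both vector arrays were above all others, and ITD line 5 was nearest to them. This call was also lost without any of the 4 arrays compared (highest adjusted p 0.0899). The ADP-ribosyltransferases Parp14 and Parp9 differed by 1.03 ± 0.15 and 0.93 ± 0.17 and the ubiquitin ligase Trim30a by 0.90 ± 0.18, all called. The call of Parp9 was lost without parental array 1 or vector array 1, and that of Trim30a without parental array 2 or either vector array. Dtx3l, the ligase partner of Parp9, differed by 0.53 and did not pass. Herc6, the ligase that attaches Isg15 in mice, showed 7.80 and 7.79 in parental and 7.92 and 7.79 in vector arrays (0.06), and Parp12 was the single gene of the 37 with a negative difference (-0.16, from 2 probe sets).

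The 4 genes of other or unsettled function were all higher. Xaf1, a partner of the apoptosis inhibitor Xiap, was 6.03 and 5.71 against 7.72 and 7.68 (1.83 ± 0.23, adjusted p = 0.00031). Ifi44 was 5.53 and 5.10 against 7.21 and 7.06 (1.82 ± 0.16, adjusted p = 1.58e-05), but 0.56 with adjusted p = 0.255 under the stricter level filter. Lgals3bp, a secreted protein that binds galectins, was 11.21 and 11.18 against 12.28 and 12.32, a difference of 1.11 ± 0.13. Ifi35 differed by 1.06 ± 0.11. For each of these 4 genes both vector arrays were above all 15 others.

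**Figure D2:**
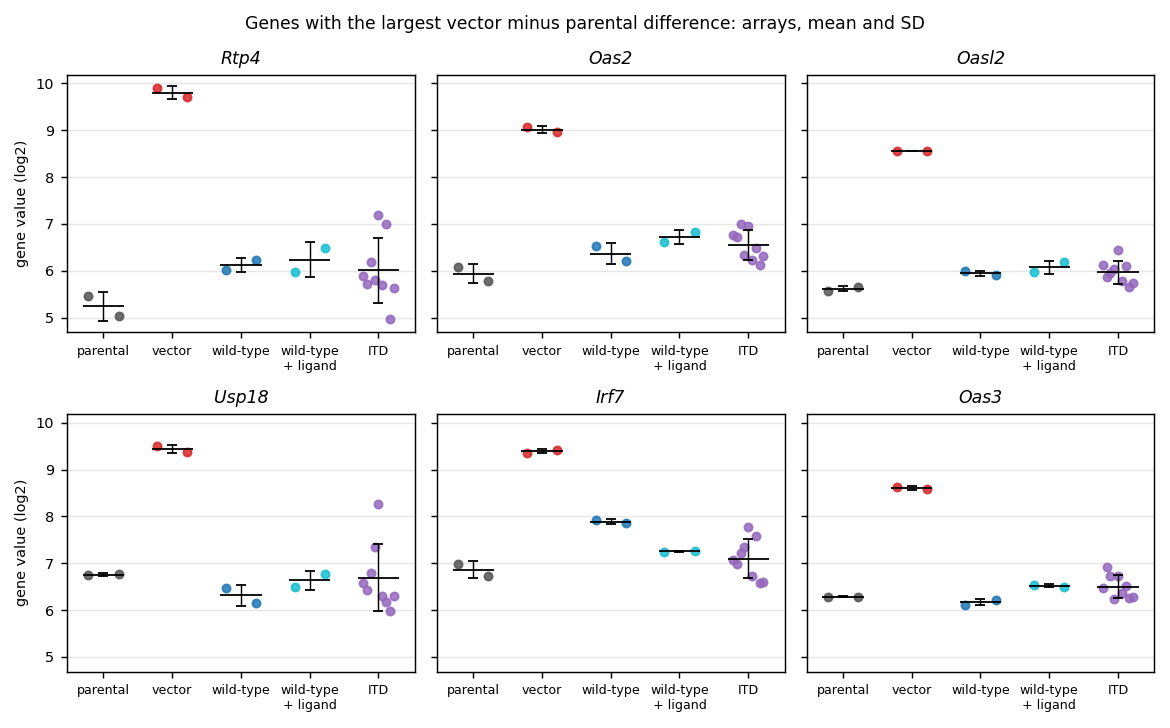
Log2 value of the 6 genes with the largest vector minus parental difference, by group; points are arrays, the long bar is the group mean and the whiskers the SD. The 2 vector points lie above all other points in each of these genes, and the ITD line nearest to them is line 5 in Usp18 (8.27).

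The same pattern was seen at the level of single probe sets, which on this array mostly stand for parts of exons. Of 460 probe sets used for the 37 genes, 384 (83.5%) were higher on both vector arrays than on both parental arrays, against 24.0% of the 237584 probe sets used in all. Above all 15 others were 293 (63.7%), against 3.03%. The vector arrays exceeded both parental arrays in all 6 probe sets of Rtp4, 18 of Oas2, 12 of Irf7 and 10 of Usp18. They also did in all 22 of Ifih1, so these genes did not rest on a single probe set. In Herc6 they did in 9 of 28, and in Parp12 in 0 of 2. The level filter used the vector arrays too, so some probe sets may have passed because those arrays were high. The shares under a filter without the vector arrays were not computed.

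Promoters of 5 genes are shown because they hold, or do not hold, a match to a core of the element read by ISGF3. All 5 genes had higher means in the vector line. The sequences are from RefSeq (GRCm38.p6), run from 250 bases before to 50 after the annotated start, and show in capitals any match to the ISRE core on either strand. The core was taken as GAAA, any 2 bases and GAAA again, which on the opposite strand reads TTTC, any 2 bases and TTTC. They lie at chr5:120777610-120777909 (Oas3, minus strand), chr19:34640639-34640938 (Ifit1, plus), chr12:26456403-26456702 (Rsad2, minus), chr8:71537423-71537722 (Bst2, minus) and chr7:141266375-141266674 (Irf7, minus).
Oas3 promoter: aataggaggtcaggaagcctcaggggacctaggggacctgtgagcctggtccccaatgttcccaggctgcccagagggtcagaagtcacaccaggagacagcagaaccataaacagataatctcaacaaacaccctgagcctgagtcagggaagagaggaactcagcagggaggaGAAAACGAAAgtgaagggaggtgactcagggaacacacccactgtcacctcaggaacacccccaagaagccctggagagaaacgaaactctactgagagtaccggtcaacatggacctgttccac
Ifit1 promoter: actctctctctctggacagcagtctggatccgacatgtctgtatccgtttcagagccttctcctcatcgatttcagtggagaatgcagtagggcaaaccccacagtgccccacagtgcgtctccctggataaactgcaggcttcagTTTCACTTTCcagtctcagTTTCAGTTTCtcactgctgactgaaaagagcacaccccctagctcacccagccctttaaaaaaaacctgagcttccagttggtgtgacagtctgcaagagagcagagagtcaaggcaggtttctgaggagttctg
Rsad2 promoter: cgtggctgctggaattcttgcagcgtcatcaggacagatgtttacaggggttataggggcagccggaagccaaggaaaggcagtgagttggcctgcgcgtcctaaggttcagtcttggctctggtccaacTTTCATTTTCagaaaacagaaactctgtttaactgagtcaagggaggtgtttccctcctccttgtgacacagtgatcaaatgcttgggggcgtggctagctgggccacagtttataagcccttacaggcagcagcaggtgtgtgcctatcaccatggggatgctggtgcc
Bst2 promoter: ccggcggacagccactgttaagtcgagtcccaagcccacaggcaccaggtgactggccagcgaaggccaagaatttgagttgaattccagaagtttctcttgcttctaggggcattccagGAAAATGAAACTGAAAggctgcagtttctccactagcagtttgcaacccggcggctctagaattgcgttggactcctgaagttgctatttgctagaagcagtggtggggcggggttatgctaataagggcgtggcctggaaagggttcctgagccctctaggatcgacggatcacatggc
Irf7 promoter: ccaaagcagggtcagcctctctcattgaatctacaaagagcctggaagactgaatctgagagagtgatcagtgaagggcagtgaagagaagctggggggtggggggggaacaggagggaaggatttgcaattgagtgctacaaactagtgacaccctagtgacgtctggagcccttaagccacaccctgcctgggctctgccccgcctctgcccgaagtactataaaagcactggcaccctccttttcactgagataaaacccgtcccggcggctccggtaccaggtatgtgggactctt
Counted from the start, the match lies at -75 to -66 in Oas3 and at -120 to -111 in Rsad2. Ifit1 holds 2 matches, and in Bst2 a pair of overlapping matches covers -130 to -115 and also overlaps a match to the GAS core TTCNNNGAA. The Irf7 window holds neither. RefSeq gave a promoter for 30 of the 39 genes, and 12 of these held the ISRE core, against 3.99% of 27025 genes; the GAS core was in 7 of the 30 against 9.55%, searched on both strands. The 10 genes with a value and an ISRE core had a median vector minus parental difference of 0.94, and the 18 with a promoter but no such core 0.80. A match is a string of letters and not a shown binding site. A promoter without a match may still hold a site of other spacing, or have one outside this window.

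Most genes upstream of this response did not pass in the same comparison. Of 19 interferon genes listed, 9 had a value, each from 1 to 3 probe sets, and none of the 9 passed in either direction. Ifnb1, from 1 probe set, averaged 6.44 with the vector and 6.70 in parental cells (-0.27 ± 0.59). Its vector arrays disagreed, with vector array 1 below both parental arrays and vector array 2 above them. Whether interferon transcripts changed is not settled by these values. The receptor chains Ifnar1 (0.25 ± 0.15, adjusted p = 0.488) and Ifnar2 (0.25 ± 0.25, adjusted p = 0.705) and the kinases Jak1 (-0.04 ± 0.11) and Tyk2 (0.04 ± 0.14) did not pass. Of the 6 receptor genes, Ifngr2 was higher (1.01 ± 0.21, adjusted p = 0.0141) and Ifngr1, the other chain of the interferon gamma receptor, lower (-0.53 ± 0.13, adjusted p = 0.043). Wild-type FLT3 cells lay near the vector cells for both. Ifngr2 read 9.55 and 9.57 with wild-type FLT3 and 9.84 and 9.74 with the vector. Ifngr1 read 9.59 and 9.43 against 9.42 and 9.39. None of 7 negative regulators or 7 other interferon regulatory factors was called. Of 15 sensors and adaptors upstream of interferon, 2 were higher: Ddx58 (1.45 ± 0.27, adjusted p = 0.0081), which encodes the RNA helicase RIG-I, and the kinase Ikbke (1.19 ± 0.25, adjusted p = 0.016). Ikbke was about as high with wild-type FLT3 (9.10 and 9.09) as with the vector (9.20 and 9.07). Ddx58 was lower with wild-type FLT3 (7.58 and 7.38) than on both vector arrays (8.56).

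A second list of 89 other interferon-stimulated genes, 75 of them with a value, was also chosen with earlier results of these data known. For vector minus parental it gave 19 higher (1.27% of genes) and 0 lower (0.959%). The median difference was 0.36, against 0.03 over all genes. Slfn2, of the Schlafen family of lymphoid and myeloid growth regulators, led it at 10.44 against 6.44 (4.00 ± 0.57). Slfn5 (2.39 ± 0.40), Apol9b (2.32 ± 0.45), Slfn4 (1.84 ± 0.31), Oas1g (1.69 ± 0.16) and Ifitm3 (1.68 ± 0.23), a membrane protein that blocks viral fusion, followed among the genes called. These genes did not all share the pattern across lines: Slfn2 was as high with wild-type FLT3 (10.42 on both arrays) and with ligand (10.75 and 10.96) as with the vector, and wild-type minus vector for Ifitm3 was -0.29 ± 0.23 (adjusted p = 0.542).

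Markers of other blood cells were read in the same arrays. Of 8 markers of plasmacytoid dendritic cells with a value, 1 was higher (Pacsin1), their mean was 6.56 to 6.67 in vector and 6.36 to 6.42 in parental arrays, and it was 6.77 to 6.84 with wild-type FLT3; Siglech, a defining marker, read 5.74 and 5.46 with the vector and 5.71 and 5.52 without. None of 11 macrophage markers was called, with list means of 7.30 to 7.34 in vector and 7.01 to 7.04 in parental arrays. Of 10 mast cell and basophil markers, 4 were lower in the vector line, with list means of 7.97 to 8.02 against 9.24 to 9.36. Of the other lists, neutrophil markers had 1 higher (Mmp9) and 1 lower (Camp) of 10, eosinophil markers 1 lower of 5 and lymphoid markers 1 lower of 7. The part of these shifts in the interferon-stimulated genes was not tested.

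Wild-type FLT3 cells, made with the same vector backbone and the same selection, did not share the high level. Against vector cells, 25 of 37 were lower (2.71% of genes) and 0 higher (5.5%; 8.22% either way), with a median difference of -1.06 against 0.02 over all genes. With the control arrays alone 31 were lower (7.59%). This comparison shares its vector arrays with the one above, so the 2 are not independent. Rtp4 was lower by -3.68 ± 0.51 (adjusted p = 0.00044), Usp18 by -3.13 ± 0.51, Oas2 by -2.65 ± 0.25 and Irf9 by -1.63. Irf7 was lower by -1.51 ± 0.31 (adjusted p = 0.00621), a call lost without vector array 2 or either wild-type array (highest adjusted p 0.0583). Of the 25 calls, 18 held whichever array was left out. Zbp1 and Ifi44, at -1.90 and -1.55, were at -0.30 and -0.10 and not called under the stricter level filter. Among the marker lists, 4 of 9 myeloblast, 3 of 10 mast cell and basophil, 2 of 5 eosinophil, 2 of 10 neutrophil and 2 of 11 macrophage markers were lower too, and 1 macrophage and 1 plasmacytoid dendritic cell marker were higher. The eosinophil list averaged 5.43 to 5.68 with wild-type FLT3 and 7.55 on both vector arrays. Their part in the result was not tested.

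Against parental cells, the wild-type line had 2 of 37 higher (9.05% of genes) and 0 lower (5.53%), with a median difference of 0.04 where all genes had 0.06. Irf7 was higher by 1.03 ± 0.31 (adjusted p = 0.0325), but the call was lost when any of these 4 arrays was left out. Ifi35, at 9.58 and 9.59 against 8.95 and 8.88, was higher by 0.67 ± 0.11 (adjusted p = 0.000596) and kept its call whichever array was left out. The count was 1 without parental array 1 or either wild-type array and 4 without ITD line 7 or 8. With the 8 control arrays fitted alone, 14 of 37 were called, 7 higher (17.2% of genes) and 7 lower (10.7%; 27.9% either way). The higher ones then were Irf7, Irf1, Rsad2, Rtp4, Xaf1, Ifi35 and Eif2ak2, and the lower ones Stat2, Usp18, Isg20, Cmpk2, Lgals3bp, Trim30a and Herc6, as many in one direction as in the other.

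Adding FLT3 ligand to wild-type FLT3 cells gave 0 of 37 called, and 0% of genes were (limma; smallest adjusted p of the 37 was 0.504). At an unadjusted p under 0.05 there were 2 of the 37, Isg20 and Herc6, where 7.69% of genes passed. The median difference was 0.03. Irf7 went from 7.92 and 7.85 to 7.24 and 7.26 (-0.63) and Rsad2 from 6.13 and 6.51 to 5.63 and 5.69 (-0.66), while Herc6 went from 7.48 and 7.20 to 7.94 and 8.04 (0.65). With the control arrays fitted alone, Irf7, Rsad2 and Isg20 were called lower and Herc6 higher, 4 of 37 where 5.68% of genes were called.

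**Figure D3:**
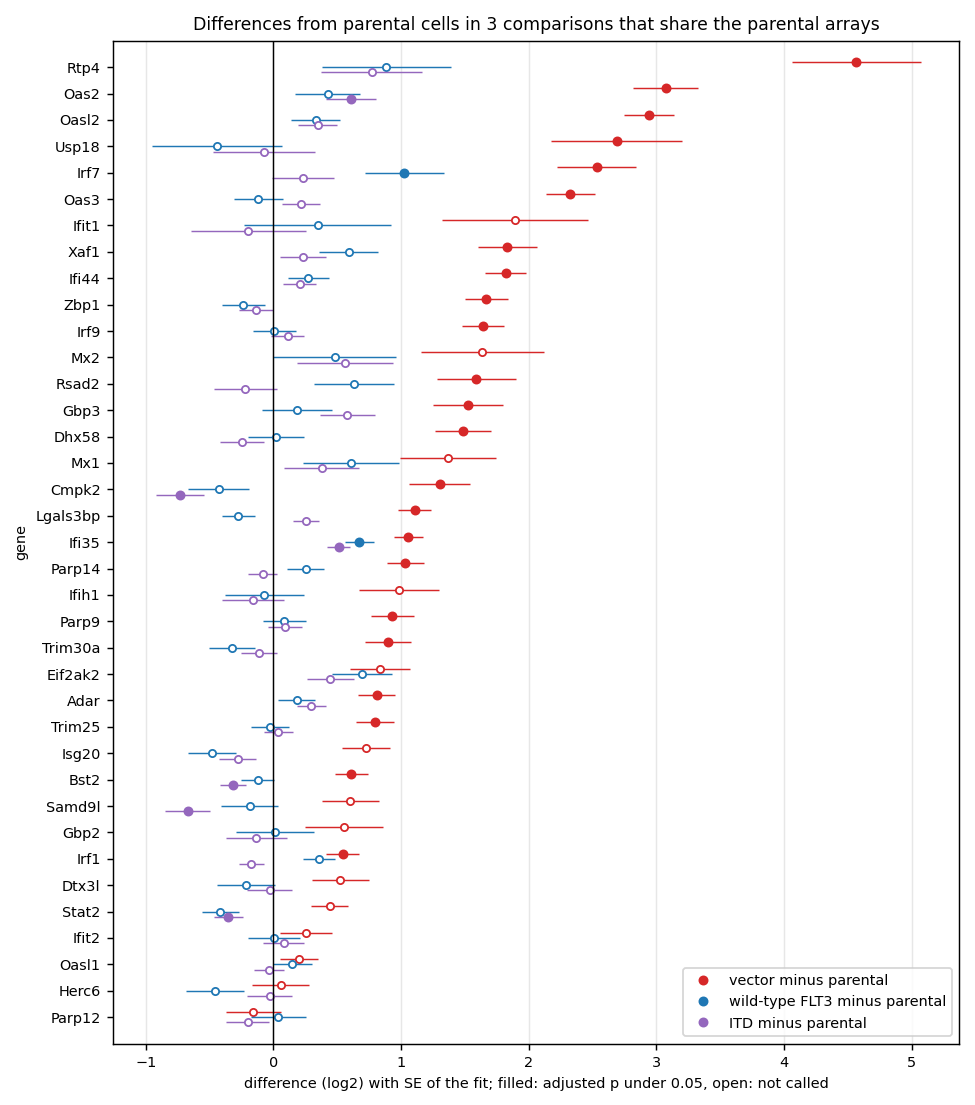
Difference from parental cells (log2, with the SE of the fit) of each of the 37 genes in vector, wild-type FLT3 and ITD cells; filled points passed the test and open points did not, and the 3 comparisons share the parental arrays. Vector points lie to the right of the others for most genes, with a median of 1.06 against 0.04 for wild-type and -0.03 for ITD cells.

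In the ITD lines the genes lay near the parental level and below the vector level. Against vector cells, 30 of 37 were lower (5.21% of genes) and 0 higher (8.82%), with a median of -1.01. Rtp4 was lower by -3.80 ± 0.40 (adjusted p = 1.45e-05) and Oasl2 by -2.60 ± 0.15 (adjusted p = 6.7e-08). Ifit1, which had not passed between vector and parental cells, was lower by -2.09 ± 0.45 (adjusted p = 0.00514). The Ifit1 call was lost without either vector array, and Ifit1, from 3 probe sets, had no value under the stricter level filter. Cmpk2 was lower by -2.03 ± 0.19, Rsad2 by -1.81 ± 0.24 and Dhx58 by -1.73 ± 0.17. Of the 30 calls, 24 held whichever array was left out. Under the stricter level filter Ifi44 went from -1.61 to -0.35 (adjusted p = 0.209), Zbp1 from -1.80 to -0.39, still called, and Parp12, at -0.04 here, was called higher at 0.75 (adjusted p = 0.0241). Markers moved in this comparison as well: 4 of 10 neutrophil (list median -0.998), 4 of 11 macrophage, 3 of 9 myeloblast and 1 of 8 plasmacytoid dendritic cell markers were lower, and 1 of 10 mast cell and basophil markers was higher. Their part in the result was not tested. In all comparisons of ITD lines with controls but the one with ligand, where this is unsettled, the mutant receptor and the absence of IL-3 cannot be told apart.

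Against parental cells, 2 of 37 were higher (10.3% of genes) and 4 lower (6.72%). Ifi35 was higher by 0.51 ± 0.09 (adjusted p = 0.000611) and Oas2 by 0.61 ± 0.20 (adjusted p = 0.0454). Cmpk2, at 6.15 to 6.92 in the ITD lines, was below both parental arrays in all 9 (-0.73 ± 0.19, adjusted p = 0.0116). Samd9l (-0.67 ± 0.17), Stat2 (-0.35 ± 0.11; -0.16 without parental array 1) and Bst2 (-0.32 ± 0.10) were the other lower ones. Of these 6 calls that of Ifi35 alone held whichever array was left out; without parental array 1 it was the only call, and 3 were called without parental array 2, ITD line 2, either vector array or either wild-type array.

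Between ITD and wild-type cells, 1 of 37 was higher (3.27% of genes) and 2 lower (4.44%). Irf1, at 7.40 to 7.71 in the ITD lines and 8.11 and 8.03 with wild-type FLT3, was lower by -0.53 ± 0.10 (adjusted p = 0.00334), and no ITD line reached the wild-type arrays. Rsad2 was lower by -0.85 ± 0.24 (adjusted p = 0.0422). Lgals3bp, at 11.16 to 11.66 against 10.90 and 10.93, was higher by 0.53 ± 0.10 (adjusted p = 0.00418), again with no overlap. None of the 3 calls held whichever array was left out, 0 of 37 were called without wild-type array 1 or 2, and 6 were without ITD line 5. Against the ligand-treated cells, 2 of 37 were higher (1.72% of genes), Isg20 (0.65 ± 0.15, adjusted p = 0.0134) and Lgals3bp (0.72 ± 0.10, adjusted p = 0.000494), and 2 lower (4.08%), Irf1 (-0.53 ± 0.10, adjusted p = 0.00351) and Parp14 (-0.50 ± 0.11, adjusted p = 0.0147). Without either ligand array 1 of the 4 was called. Both comparisons use the same ITD arrays.

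The spread among the 9 mutants was wider than within the control pairs for some of these genes, but none of the 37 passed adjustment over all genes. The ratio sets different lines against pairs that may differ only technically. When the variance among the 9 mutants was divided by that within the 4 control pairs (F ratio, one-sided), 0 of 37 passed Benjamini-Hochberg adjustment, where 2.55% of genes did, and 22 of 37 had an unadjusted p under 0.05, where 24.3% of genes did. The smallest adjusted p was 0.0578. The median SD over the ITD lines was 0.263 for the 37 genes and 0.199 for all genes, and within the control pairs 0.112 and 0.124. The genes named next were chosen after their values were seen. The SD was 0.79 for Ifit1 (from 3 probe sets), 0.72 for Usp18, 0.69 for Rtp4 and 0.66 for Mx2. ITD line 5 had the highest of the 9 values in 13 of 37 genes (11.7% of all genes), with Usp18 at 8.27, Rtp4 at 7.18 and Irf7 at 7.76. ITD line 8 had the lowest in 13 of 37 (14.3%), with Rtp4 at 4.98. ITD line 7 was mixed: it was highest in 7 genes (17.9% of all genes), with Mx2 at 7.04 and Ifit1 at 6.73, and lowest in another 7 (16.8%), both near the share over all genes. Each mutant has 1 array, so the mutant and its culture cannot be told apart.

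**Figure D4:**
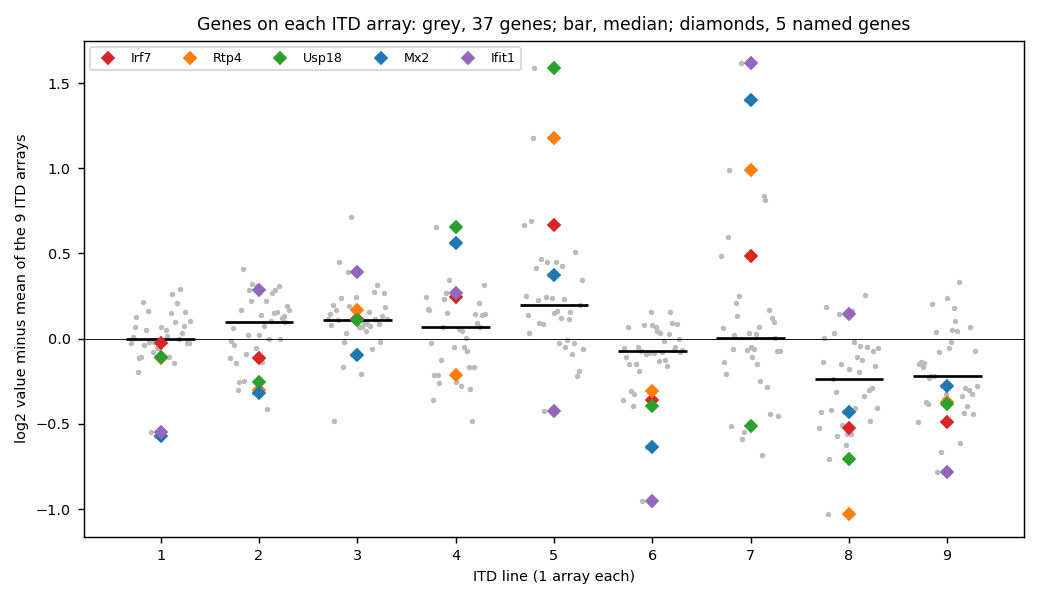
Log2 value of each of the 37 genes minus its mean over the 9 ITD arrays, by ITD line; grey points are genes, the bar is their median and diamonds mark Irf7, Rtp4, Usp18, Mx2 and Ifit1. The median is highest in ITD line 5 (0.20) and lowest in ITD line 8 (-0.24), and ITD line 7 has Ifit1 and Mx2 far above and Usp18 below the mean.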

How the data were processed

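The authors deposited RMA signals on the log2 scale, 1 for each probe set; the submitters' processing notes name Affymetrix Expression Console 1.1; genome build and probe set filter were not given in the sources used here. Of 1256831 probe sets, 325444 had a gene symbol in the platform annotation, 6684 of them several, and the latter and the 931387 without one were left out. Symbols were updated through RefSeq synonyms: of 22296, 18006 were current, 4227 were changed and 63 were kept unmatched. Herc6 was read from probe sets annotated Herc5 and Trim30a from Trim30. A gene value was the mean of its probe sets whose mean over the 17 arrays exceeded 4.599, the median over all probe sets.

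Group means of the 5 groups were fitted over 20227 genes in limma 3.58.1 under R 4.3.3 (lmFit and eBayes with trend, 12 residual and 4.49 prior degrees of freedom), two-sided, for 8 comparisons that share arrays, with Benjamini-Hochberg adjusted p under 0.05 as the threshold. The shared spread rests mostly on the 9 ITD lines. The fit was tested on simulated data. Alternatives were other level filters, the median of probe sets, renewed quantile normalisation, no trend, control arrays alone and leaving out each array.

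The genes and lists were chosen with earlier results of these data known. Values per array were given for the 12 genes with the largest vector minus parental difference and up to 4 more each from ITD minus vector and ITD minus wild-type, with others added for their role.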

Additional observations from a re-analysis of the deposited data

Results flagged for a closer look

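Among the 9 ITD lines, 5 of the 37 genes had 1 array far from the others. Its gap to its neighbour, as a share of the range, passed Dixon's critical value for 9 values. Chance gives this in about 1 in 20 groups. The share over all genes was not computed, so whether 5 of 37 is unusual on these arrays is not known. Isg20, an exonuclease that degrades viral RNA, was lowest in ITD line 8 at 7.38, where the next lowest line was at 7.88. The other genes with an outlying array were Ifi35 and those of ITD line 7. There, Ifit2, an RNA-binding relative of Ifit1, was lowest at 6.72 (next 7.16), and Dtx3l, the ligase partner of Parp9, was lowest at 7.47 (next 8.07). Gbp3, a guanylate-binding GTPase, was highest in the same line at 6.94 (next 6.27). Ifi35 was lowest in ITD line 4 at 9.15 (next 9.40), which was still above both parental arrays. Each line has 1 array, so none of these values has a replicate.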

How the results depend on the processing

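No gene called as reported changed direction under the settings run; Parp12, not called for ITD minus vector (-0.04), was called higher with the stricter filter (0.75). The counts of the 37 genes called for vector minus parental, wild-type minus vector, ITD minus vector, ITD minus wild-type and ITD minus ligand stayed within 1.5 times under every setting that kept all arrays. The count for wild-type minus parental, 2 as reported, was 6 with a stricter level filter, 4 with the median of probe sets, 5 with renewed quantile normalisation and 14 with the control arrays alone. That for ligand minus wild-type, 0 as reported, was 4 with the control arrays alone. ITD minus parental gave 3 of 37 without a trend in place of 6, and variation among ITD lines 3 with the stricter filter and 1 with quantile normalisation in place of 0; the cause was not tested. A filter that ignores the vector arrays, chosen after seeing the data, kept all 37 genes and called 22 for vector minus parental; Zbp1 was the one lost, at 0.64 (adjusted p = 0.0544) in place of 1.67.

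The replicate numbers do not pair the arrays: deviations of same-numbered arrays of 2 control groups correlated between -0.118 and 0.092. With the replicate block on the control arrays alone, 31 of 37 were called for vector minus parental and 31 for wild-type minus vector, as without it, 13 for wild-type minus parental and 4 for ligand minus wild-type.

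Leaving out 1 array at a time gave 13 to 28 for vector minus parental (28 without ITD line 7), 19 to 29 for wild-type minus vector, 1 to 4 for wild-type minus parental (1 without parental array 1 or either wild-type array, 4 without ITD line 7 or 8) and 0 to 0 for ligand minus wild-type. It gave 24 to 32 for ITD minus vector, 1 to 8 for ITD minus parental (1 without parental array 1; 3 without parental array 2, ITD line 2, either vector or either wild-type array), 0 to 6 for ITD minus wild-type (0 without either wild-type array, 6 without ITD line 5), 1 to 5 for ITD minus ligand (1 without either ligand array) and 0 to 1 for variation (1 without ITD line 1). Of the calls reported, 11 of 23 for vector minus parental held under every setting, and 23 of 30 for ITD minus vector.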
